A study of Rattus norvegicus with 8 samples.

Results

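The mitochondrial genome encodes 13 proteins, and 10 of them belong to respiratory complexes I and IV. These 10 genes, Mt-nd1 to Mt-nd6 with Mt-nd4l for complex I (7 genes) and Mt-co1 to Mt-co3 for complex IV (3 genes), are described here in germ cells of prepubertal rats with and without doxorubicin. They were taken from the deposited count table by symbol, ignoring case, and each of the 10 matched 1 of its 24059 rows. All 10 passed the filter on low counts and were among the 16976 genes tested. Each group contained transgenic Sprague-Dawley rats carrying the GCS-EGFP reporter, whose GFP-positive germ cells were isolated from the testis; the labels also give "SSC" as a cell line and the RNA as polyA RNA. The 4 treated rats (numbers 2, 3, 6 and 8) received doxorubicin at 5 mg/kg on postnatal day 6 and the 4 controls (numbers 1, 4, 5 and 9) received vehicle, and cells were collected 24 h later. Each library came from 1 rat.

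Complex I (NADH dehydrogenase) passes electrons from NADH to ubiquinone, and complex IV (cytochrome c oxidase) passes them from cytochrome c to oxygen; both pump protons across the inner mitochondrial membrane. Their mitochondrial subunits form the hydrophobic core of each enzyme and assemble with subunits made from nuclear genes. Mitochondrial messenger RNAs are cut from long precursors that span most of a strand of the circular genome, so the genes share their transcription, and all members except Mt-nd6 lie on the same template strand. Doxorubicin is an anthracycline that intercalates into DNA and traps topoisomerase II, and mitochondria are a known site of its toxicity in the heart.

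The smallest library held 41253848 counts (control rat 9) and the largest 58871101 (doxorubicin rat 2). The germ cell markers Ddx4, Dazl, Dnd1, Mael, Tex101, Sall4 and Zbtb16 together stood at 1835 to 1955 CPM in control libraries and 1872 to 1929 in treated ones (sums over a list are counts scaled to the raw library total, while CPM of single genes are also scaled by TMM, the trimmed mean of M values). Marker sums of other cells were lower, with 34.7 to 45.2 CPM for Sertoli, 4.18 to 9.65 for Leydig, 38.2 to 49.96 for peritubular and stromal, 70.6 to 90.0 for endothelial and 6.20 to 13.4 for erythroid cells over all 8 libraries. Most of the endothelial sum was Pecam1 (mean of 70.7 CPM in controls), while Cdh5, Kdr and Tek had 2.42, 2.79 and 2.93 CPM. Clu, at 23.2 CPM in controls, was the largest part of the Sertoli sum. The groups overlapped in each of these sums, though single markers moved within them. In the erythroid list Slc4a1, the red cell anion exchanger, rose (log2 fold change 1.28, edgeR adjusted p = 0.0339), while the globin genes Hbb and Hba-a1 lay below all controls (-1.17 and -0.88, edgeR adjusted p = 0.192 and 0.206), and DESeq2 called 1 erythroid marker higher and 2 lower. In the stromal list Col1a1 and Pdgfra lay below all controls (-0.15 and -0.16, edgeR adjusted p = 0.746 and 0.713). Myh11 went the other way, with the largest change of that list (0.79, edgeR adjusted p = 0.561) and groups that overlapped. The stromal list had 4 log2 fold changes below 0 and 1 above, beside 52.2% below 0 among all genes. For scale, an adjusted p below 0.05 was reached by 0.112% of all genes in edgeR and 0.873% in DESeq2. Of all single genes, 4.72% had groups without overlap in CPM. The 4 macrophage and leukocyte markers summed to 1.76 to 2.01 CPM in controls and 2.06 to 2.51 CPM after doxorubicin, which did not overlap, and the part of these markers in the results below was not tested.

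The 10 genes did not differ between doxorubicin and control rats beyond the spread between animals. Together they took 6.41% ± 0.47 of all counts in control libraries and 6.39% ± 0.61 in treated ones (SD, n = 4 each). Complex I genes took 2.42% ± 0.24 and 2.40% ± 0.36, and complex IV genes took 4.00% ± 0.24 and 3.99% ± 0.26. None of the 10 passed the threshold, a Benjamini-Hochberg adjusted p below 0.05 in edgeR's quasi-likelihood test over all genes, where 0.112% of all genes did, and the lowest adjusted p of a member was 0.965. Also 0 members had an unadjusted p below 0.05, beside 6.76% of all genes in the same edgeR fit. DESeq2 called 0 members and 0.873% of genes, and limma-voom 0 members and 0.141% of genes. In no member did the groups separate, beside 4.72% of all genes without overlap in CPM. With only 10 members, a count of 0 does not set them apart from all genes at these shares. Of the 10, 5 had a log2 fold change below 0, beside 52.2% of all genes, and their median was -0.00035, beside -0.0047 over all genes. In bulk libraries fewer cells of a type and less RNA per cell cannot be told apart, and a share of counts does not give an amount of RNA per cell.

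**Figure D1:**
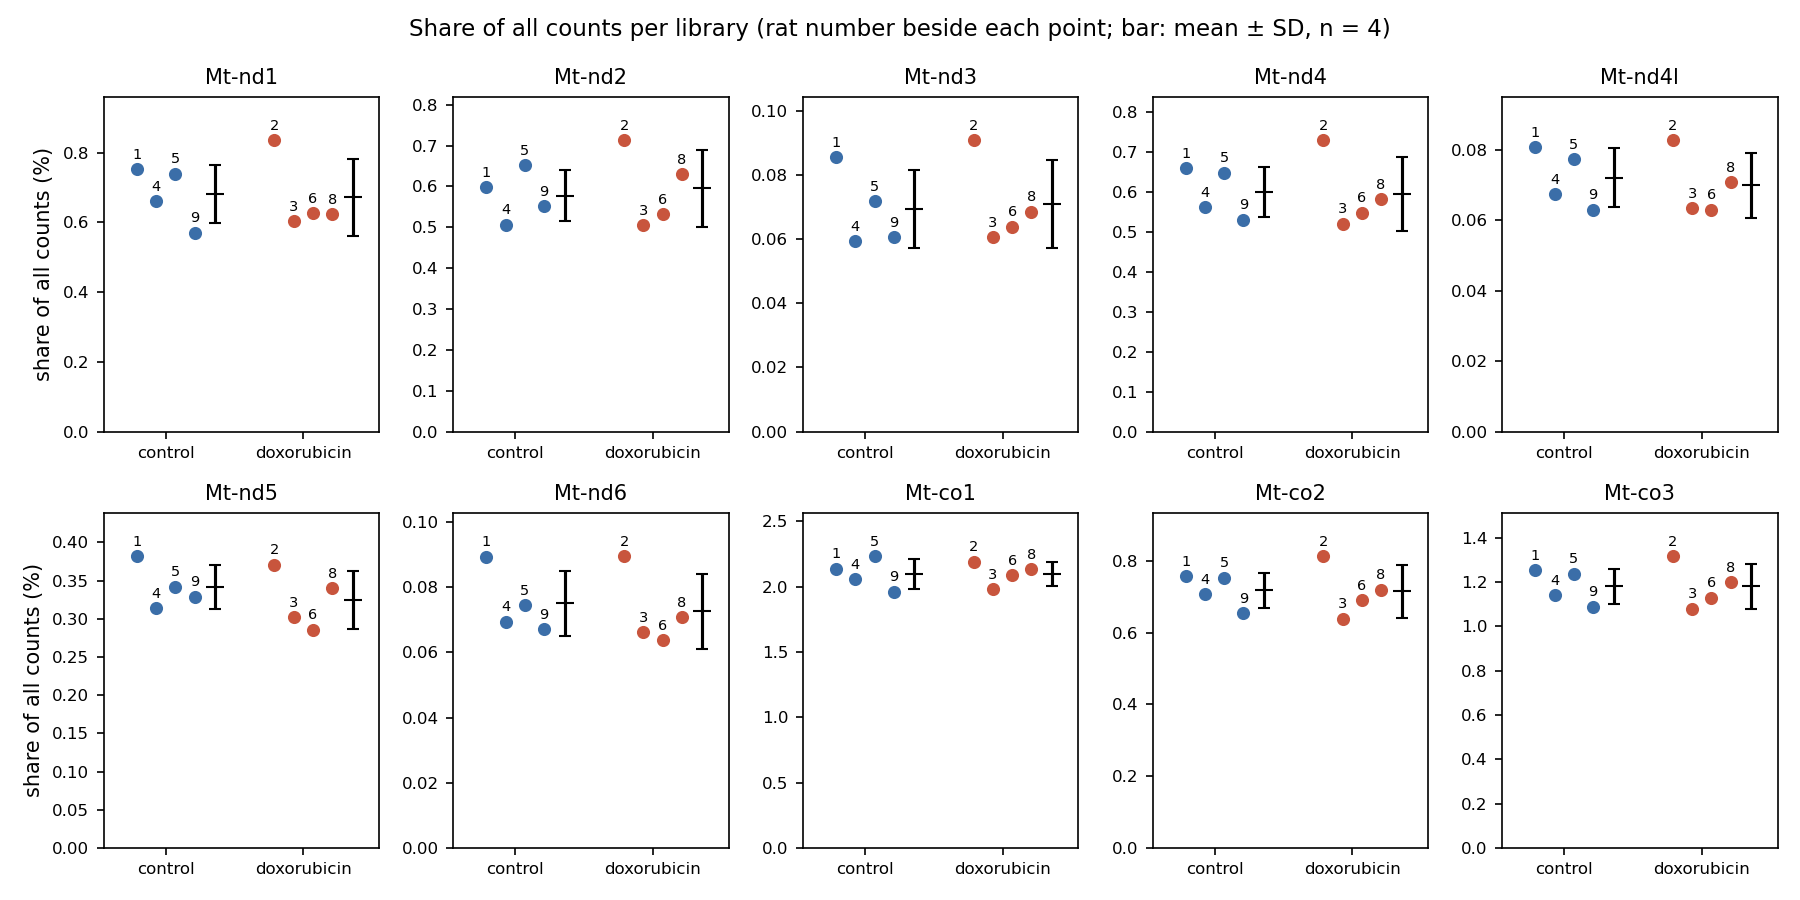
Share of all counts (%, axes from 0) taken by each of the 10 genes in each library, control in blue and doxorubicin in red, with the rat number above each point and the mean ± SD (n = 4) beside each group. The groups overlap in every panel, and doxorubicin rat 2 is highest in 8 of them.

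Values by library follow in the order of control rats 1, 4, 5 and 9 and then doxorubicin rats 2, 3, 6 and 8. Each percentage is a share of all counts, which depends on transcript length as well as abundance, so the genes are not ranked against each other by level. Log2 fold changes are doxorubicin against control from the edgeR fit, with SE and 95% interval.

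Mt-nd1 (ENSRNOG00000030644.4) encodes the subunit that meets the ubiquinone site at the foot of the complex I membrane arm. It took 0.753%, 0.661%, 0.739% and 0.570% of counts in controls and 0.835%, 0.603%, 0.626% and 0.623% after doxorubicin. Doxorubicin rat 2 was highest, while the other treated rats lay inside the control range. The log2 fold change was -0.01 ± 0.14 (interval -0.34 to 0.32; edgeR adjusted p = 0.998). Mt-nd3 (ENSRNOG00000033615.3), a small subunit near the same site, took 0.0855%, 0.0593%, 0.0717% and 0.0606% in controls and 0.0908%, 0.0606%, 0.0639% and 0.0685% after doxorubicin. Control rat 1 and doxorubicin rat 2 stood above the rest. Its log2 fold change of 0.04 ± 0.18 had the widest interval of the 10 genes, from -0.39 to 0.47 (edgeR adjusted p = 0.99).

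Mt-nd6 (ENSRNOG00000029042.3) encodes a subunit of the same part of the membrane arm. It took 0.0893%, 0.0695%, 0.0745% and 0.0670% of counts in controls and 0.0894%, 0.0662%, 0.0637% and 0.0708% after doxorubicin, so control rat 1 and doxorubicin rat 2 were nearly equal and above the rest. The log2 fold change was -0.04 ± 0.14 (interval -0.38 to 0.30; edgeR adjusted p = 0.986). Mt-nd6 is the only member on the opposite strand. If strand was not used in counting, its reads cannot be told apart from precursor RNA of the other strand, and the strand setting is not given in the sources used here. The RNA was polyA-enriched, and the part of that selection in the Mt-nd6 values was not tested. The ratio of Mt-nd6 to Mt-nd5 counts was 0.234, 0.221, 0.218 and 0.204 in controls and 0.241, 0.220, 0.223 and 0.209 after doxorubicin, which overlapped.

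Mt-nd4l (ENSRNOG00000031053.3) and Mt-nd4 (ENSRNOG00000029707.3) are read from a single shared messenger RNA. Mt-nd4l, one of the smallest complex I subunits, took 0.0806%, 0.0673%, 0.0773% and 0.0629% in controls and 0.0827%, 0.0633%, 0.0629% and 0.0708% after doxorubicin. Mt-nd4, one of the proton-pumping subunits of the outer membrane arm, took 0.659%, 0.562%, 0.648% and 0.531% in controls and 0.730%, 0.521%, 0.548% and 0.581% after doxorubicin. Both were highest in doxorubicin rat 2, and their groups overlapped. The log2 fold changes were -0.03 ± 0.12 for Mt-nd4l (interval -0.32 to 0.25; edgeR adjusted p = 0.988) and -0.0033 ± 0.13 for Mt-nd4 (interval -0.31 to 0.30; edgeR adjusted p = 1.00). Their count ratio was 0.120 ± 0.0016 over control rats and 0.118 ± 0.0044 over treated rats (SD, n = 4 each), and it was lowest in doxorubicin rat 2 (0.113) and highest in control rat 1 (0.122).

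Mt-nd2 (ENSRNOG00000031033.4) and Mt-nd5 (ENSRNOG00000029971.3) encode the other two antiporter-like subunits of the membrane arm. Mt-nd2 took 0.598%, 0.507%, 0.652% and 0.552% in controls and 0.713%, 0.505%, 0.533% and 0.629% after doxorubicin. Doxorubicin rat 2 was highest, and the log2 fold change was 0.05 ± 0.13 (interval -0.26 to 0.37; edgeR adjusted p = 0.98). Mt-nd5 took 0.382%, 0.314%, 0.342% and 0.329% in controls and 0.371%, 0.302%, 0.286% and 0.340% after doxorubicin. Here control rat 1 was highest and doxorubicin rat 6 lowest. Mt-nd5 had the log2 fold change farthest from 0 among the 10 genes, -0.07 ± 0.10, which was smaller than its SE (interval -0.30 to 0.17; edgeR adjusted p = 0.965).

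Mt-co1 (ENSRNOG00000034234.3) encodes the subunit of complex IV that holds the heme and copper site where oxygen is reduced. It took 2.14%, 2.06%, 2.23% and 1.96% of counts in controls and 2.19%, 1.98%, 2.09% and 2.13% after doxorubicin. By share the treated libraries all lay inside the control range, while in CPM doxorubicin rat 2 (22309) was just above the highest control (22269). Its mean was 20924 ± 1295 CPM over control rats and 21041 ± 1149 CPM over treated rats (SD, n = 4 each), and the log2 fold change was 0.0080 ± 0.05 (edgeR adjusted p = 0.994). The 95% interval, the narrowest of the 10, ran from 6.84% lower (log2 -0.10) to 8.54% higher (log2 0.12).

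Mt-co2 (ENSRNOG00000030371.3) encodes the subunit that takes electrons from cytochrome c through its copper center. It took 0.758%, 0.708%, 0.753% and 0.654% in controls and 0.812%, 0.638%, 0.690% and 0.720% after doxorubicin, with doxorubicin rats 2 and 3 at the 2 ends. The log2 fold change was 0.0026 ± 0.08 (interval -0.18 to 0.19; edgeR adjusted p = 1.00). Mt-co3 (ENSRNOG00000030700.3), a core subunit without a redox center, took 1.25%, 1.14%, 1.24% and 1.09% in controls and 1.32%, 1.08%, 1.13% and 1.20% after doxorubicin. The same 2 treated rats were highest and lowest, and the log2 fold change was 0.0092 ± 0.07 (interval -0.16 to 0.17; edgeR adjusted p = 0.996).

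**Figure D2:**
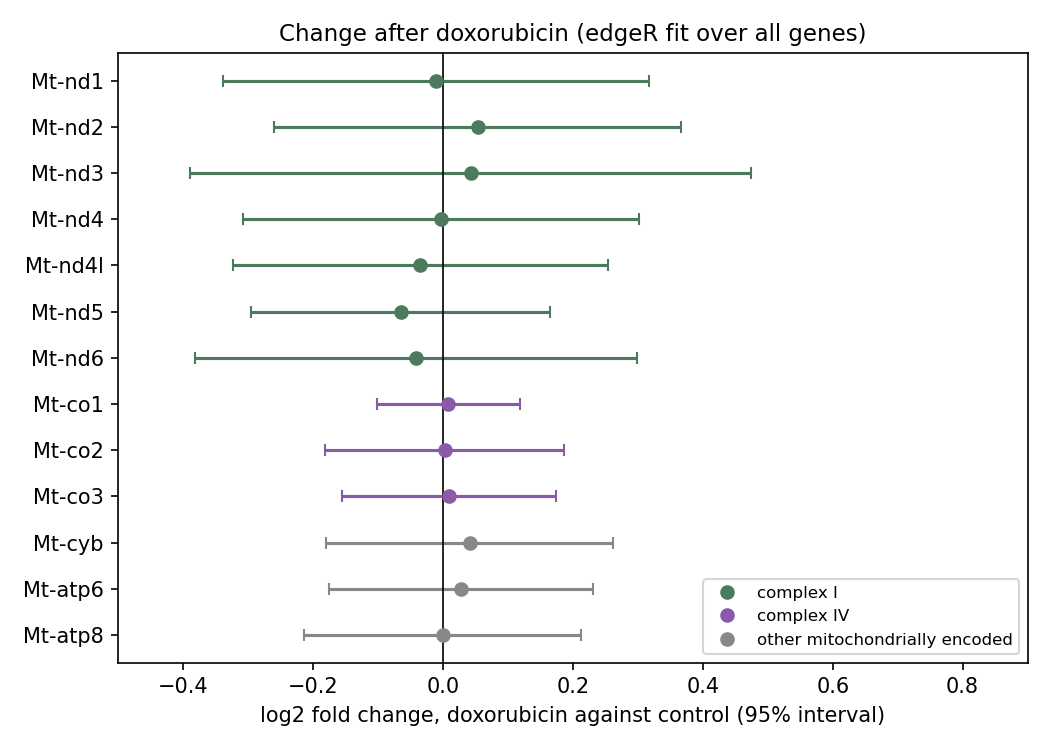
Log2 fold change (doxorubicin against control) with its 95% interval from the edgeR fit for the 10 genes and the remaining 3 mitochondrially encoded genes, colored by complex. Every interval spans 0; those of the 3 complex IV genes are narrower than those of the 7 complex I genes.

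The sign of these small differences rested on single animals. Without doxorubicin rat 2 all 10 log2 fold changes were below 0, as they were without control rat 4, whereas without control rat 1 or doxorubicin rat 6 the number was 0. Leaving out control rat 9 gave 9, leaving out control rat 5 gave 2, and leaving out doxorubicin rat 3 gave 1. Without doxorubicin rat 8 the number was 6, close to the 5 of the main fit. Over every fit run, the largest log2 fold change of a member in size was 0.17, and the lowest adjusted p was 0.83.

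The 10 genes moved together from rat to rat. In control rats 1 and 5 and doxorubicin rat 2 all 10 stood above their own mean over the 8 libraries, in control rats 4 and 9 and doxorubicin rats 3 and 6 all 10 stood below it, and in doxorubicin rat 8 there were 6 above it. The median deviation of complex I genes from their means was 0.21, -0.10, 0.12 and -0.18 on the log2 CPM scale in control rats 1, 4, 5 and 9, and 0.32, -0.17, -0.14 and -0.0025 in doxorubicin rats 2, 3, 6 and 8. That of complex IV genes was 0.11, -0.04, 0.07 and -0.13 in the controls and 0.19, -0.14, -0.06 and 0.04 in the treated rats. Each group therefore held libraries at both ends. After the group mean was removed, the Pearson correlation between 2 members over the 8 libraries ran from 0.717 for Mt-co1 with Mt-nd5 to 0.988 for Mt-co3 with Mt-co2, with a median of 0.913 over 45 pairs. This is a description, since the members share libraries, scaling and precursors.

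**Figure D3:**
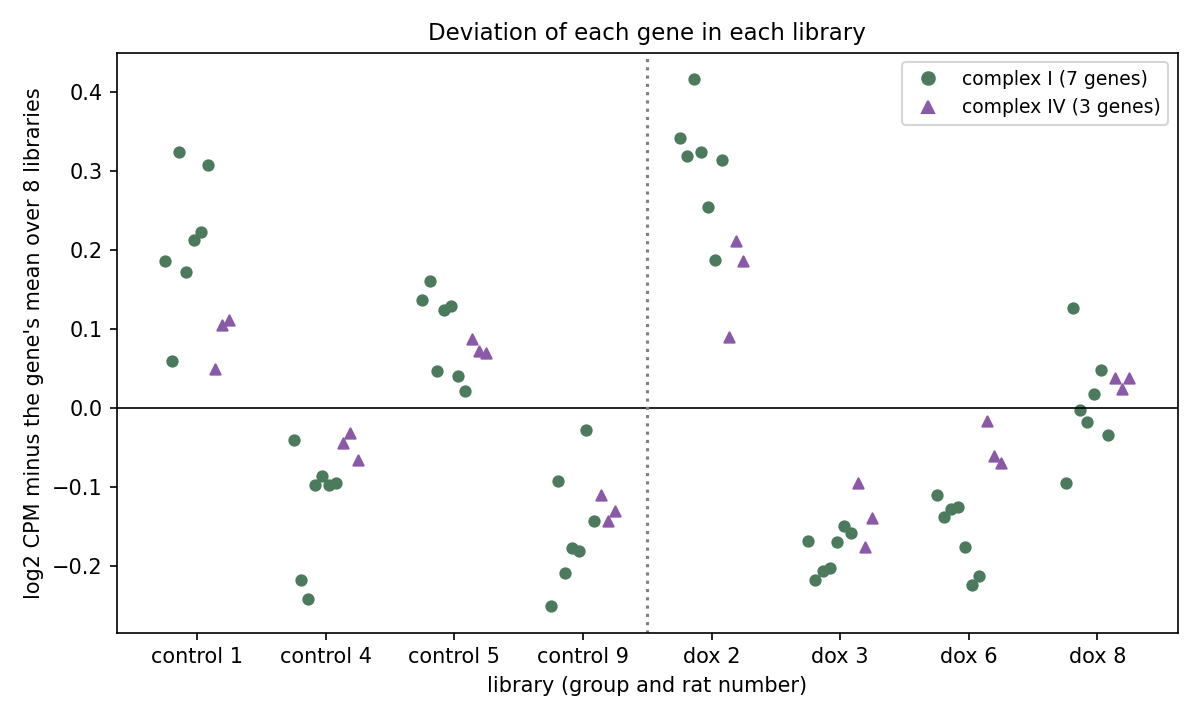
Log2 CPM of each gene minus its own mean over the 8 libraries (vertical axis), by library (horizontal axis; dox is doxorubicin), with circles for complex I and triangles for complex IV. Control rats 1 and 5 and doxorubicin rat 2 lie above 0 for all 10 genes, and the median deviation of complex I genes is farther from 0 than that of complex IV genes in every library except doxorubicin rat 8.

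Complex I genes varied more between rats than complex IV genes. In controls the coefficient of variation of CPM ran from 9.76% (Mt-nd5) to 18.9% (Mt-nd3) for complex I and from 6.19% (Mt-co1) to 7.83% (Mt-co3) for complex IV. Among doxorubicin rats it ran from 13.1% to 20.5% and from 5.46% to 11.5%. The treated values leaned on rat 2, without which they ran from 2.68% (Mt-nd1) to 12.8% (Mt-nd2) for complex I and from 4.62% to 6.92% for complex IV, and the ranges then overlapped. Over the 2638 genes of at least 100 CPM the median was 3.95% in controls and 3.47% in treated rats. The lowest count of a member in any library was 24996, for which the counting error alone is 0.633%. The sources of the spread between rats were not tested. The difference in spread between the complexes was not tested.

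The balance of the complexes followed the same animals. Complex I counts divided by complex IV counts gave 0.638, 0.573, 0.617 and 0.587 in control rats 1, 4, 5 and 9, and 0.674, 0.574, 0.559 and 0.589 in doxorubicin rats 2, 3, 6 and 8. The means were 0.604 ± 0.029 and 0.599 ± 0.052 (SD, n = 4 each), so the groups did not differ beyond their spread. As a share of all mitochondrially encoded counts, complex I made up 30.7%, 28.9%, 30.0% and 29.1% in controls and 31.6%, 28.8%, 28.2% and 29.1% in treated rats. Complex IV made up 48.1%, 50.4%, 48.7% and 49.6%, and 46.8%, 50.1%, 50.4% and 49.4%. Doxorubicin rat 2 thus had the highest complex I share and the lowest complex IV share. The 3 libraries in which all 10 genes were above their mean also had the largest numbers of detected genes (19897 in control rat 1, 19865 in control rat 5 and 19964 in doxorubicin rat 2, against 19598 to 19825 in the remaining libraries), and their totals were 57700969, 52646022 and 58871101 counts. The part of depth and of library quality in this pattern was not tested.

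The remaining mitochondrially encoded genes in the table were Mt-cyb, the complex III subunit cytochrome b, and Mt-atp6 and Mt-atp8, subunits of ATP synthase. Their log2 fold changes were 0.04 ± 0.10, 0.03 ± 0.09 and -0.00057 ± 0.09 (edgeR adjusted p = 0.98, 0.984 and 1.00), and their groups overlapped. Among 13912 genes outside the 10 that had at least 1 CPM on average, Mt-cyb followed the members' mean log2 CPM most closely after group means were removed (Pearson r = 0.992 over 8 libraries). Next came Ssr4, a subunit of the translocon-associated complex of the endoplasmic reticulum (r = 0.986), the nuclear complex I subunit Ndufa6 (r = 0.985), and LOC120103587 and LOC100910996 (r = 0.982 and 0.98). With 8 libraries 172 genes reached an r of at least 0.9, and Mt-atp6 stood 20th at 0.956 and Mt-atp8 438th at 0.849. Mt-atp6 and Mt-atp8 had estimated counts that were not whole in 7 libraries each, while every count of the 10 members was whole.

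The nuclear genes of the same complexes gave no call either. The table held 35 nuclear complex I subunits, of which 34 were tested. Neither edgeR nor DESeq2 called any (0 each), and 1 was lower in edgeR before adjustment (p below 0.05). In that list 25 log2 fold changes were below 0 and 9 above, with a median of -0.02, beside 52.2% below 0 among all genes. The shares of all genes with an unadjusted edgeR p below 0.05 (6.76%) and without overlap (4.72%) were given above, and 1 of 34 is no larger than either. Ndufa5, an accessory subunit, had the smallest p, with 52.4 ± 1.57 CPM over control rats and 47.7 ± 1.11 CPM over treated rats (SD, n = 4 each) and a difference of -0.14 ± 0.04 on the log2 scale (edgeR adjusted p = 0.403). It was also the only tested subunit of that list whose groups did not overlap. Next was Ndufb4, also an accessory subunit, at -0.10 ± 0.05 (edgeR adjusted p = 0.764). The summed abundance of the list was 2022 to 2107 CPM in controls and 1985 to 2081 CPM in treated rats, while the summed share of the 10 mitochondrial genes ran from 5.82% to 7.23% of counts over the 8 libraries.

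Of 13 nuclear complex IV subunits tested, edgeR and DESeq2 each called 0. Before adjustment 1 was higher in edgeR (p below 0.05), beside 6.76% of all genes in either direction. The list had 9 log2 fold changes below 0, 4 above and a median of -0.0094, beside 52.2% below 0 among all genes. The 2 with the smallest p were Cox7a2, at 0.108 ± 0.080 CPM over control rats and 0.340 ± 0.208 CPM over treated rats (edgeR adjusted p = 0.54), and Cox7b, whose log2 fold change was 0.14 ± 0.08 (edgeR adjusted p = 0.797). Both encode small accessory subunits, and whether reads of Cox7a2 were partly assigned elsewhere was not tested. Among assembly factors, 0 of 14 for complex I and 0 of 13 for complex IV passed edgeR or DESeq2, and in both lists the edgeR count before adjustment was 0 as well. Their medians were -0.01 and -0.0042. The genes with the smallest p were Tmem126b and Tmem70 for complex I (log2 fold changes of -0.09 ± 0.06 and -0.12 ± 0.07, both with edgeR adjusted p = 0.846) and Cox15 and Coa3 for complex IV (0.11 ± 0.06 and -0.09 ± 0.07, edgeR adjusted p = 0.797 and 0.903). Cox15 makes heme A, the cofactor held by Mt-co1.

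**Figure D4:**
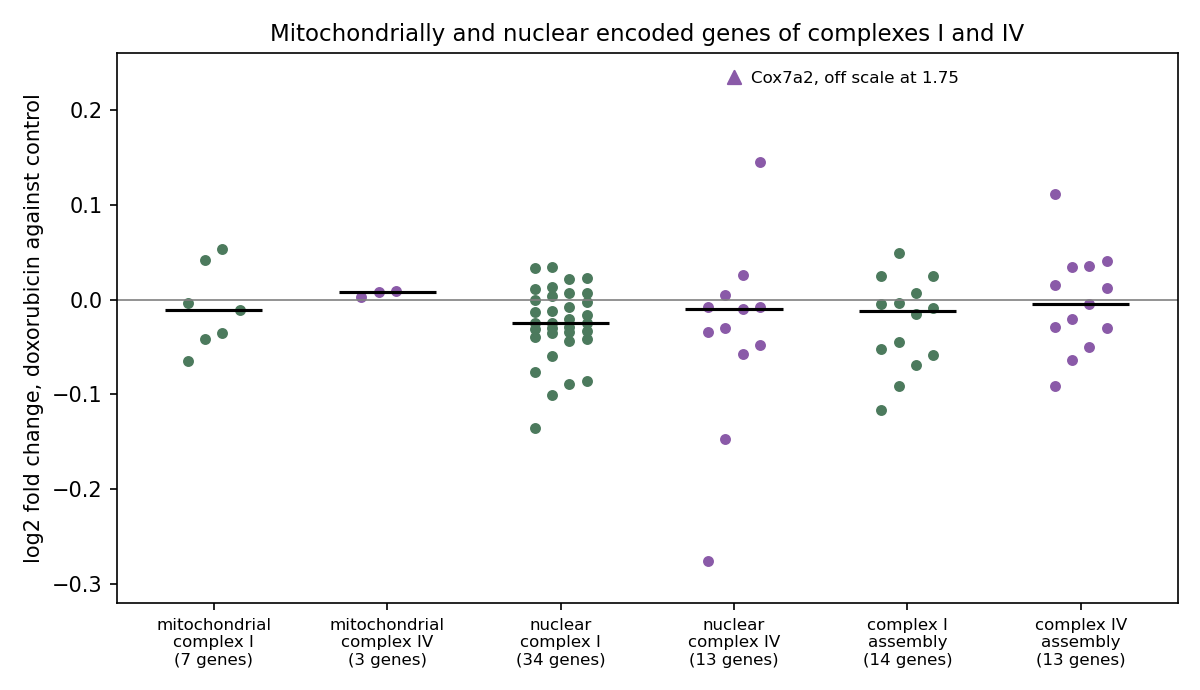
Log2 fold change (doxorubicin against control, edgeR) of each tested gene in 6 sets of complex I (green) and complex IV (purple) genes, with black lines at the medians. The medians lie between -0.025 and 0.01, and Cox7a2, a gene under 1 CPM, is drawn as a triangle off the scale.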

How the data were processed

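PolyA-enriched RNA sequencing was run on GFP-positive germ cells of 8 rats from RNA with a RIN above 8, per the labels' protocols. The authors deposited 1 table of estimated counts by gene, without normalization. The submitters' processing notes name build rn6, kallisto 0.48.0, fastp 0.23.2, featureCounts, DESeq2 1.40.2 and Trimmomatic, without role or order. Between 32.5% and 33.6% of values per library were not whole (tolerance 1e-06) and were rounded. Shares of counts use raw totals. Tests used R 4.3.3 with edgeR 4.0.16: filterByExpr, TMM, glmQLFit (robust) and glmQLFTest with no covariate, and Benjamini-Hochberg adjustment over 16976 genes. DESeq2 1.42.0 and limma 3.58.1 were alternatives, with other scalings, filters and each library left out. The SE of a log2 fold change is its size over the root of F. Every pair of libraries differed by more than sampling noise (chi-square per degree of freedom at least 6.22). The procedure was tested on simulated data. The members and lists were chosen with earlier results of these data known. Named genes are the members, the other mitochondrially encoded genes, the 2 smallest p of each nuclear list and the 5 genes most correlated with the members; the cell marker lists and the lists' gene names were matched by symbol.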

Additional observations from a re-analysis of the deposited data

Results flagged for a closer look

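In doxorubicin rat 2 Mt-nd1 stood at 8509 CPM, far above the other treated rats (5973 to 6288 CPM), with a gap that exceeded Dixon's 95% critical value for 4 libraries. It was the only one flagged of 30 groups of 4 libraries examined (the members, their sums and 3 count ratios), where chance gives about 1.5.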

How the results depend on the processing

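No member passed the threshold in any of the 16 alternative fits. Over all genes, 19 passed edgeR, 169 passed DESeq2, 53 passed without robust fitting and 60 at an adjusted p below 0.1. With each library left out in turn this count ran from 1 (without control rat 5 or doxorubicin rat 8) to 62 (without doxorubicin rat 2), with 2, 3 and 11 when control rats 4, 9 and 1 were dropped and 11 when doxorubicin rat 6 was, and the number of members below 0 from 0 to 10. Log2 fold changes of members then ran from -0.142 to 0.0503 (Mt-nd1), -0.0537 to 0.134 (Mt-nd2), -0.108 to 0.170 (Mt-nd3), -0.125 to 0.0654 (Mt-nd4), -0.134 to 0.0328 (Mt-nd4l), -0.144 to 0.00145 (Mt-nd5), -0.167 to 0.0628 (Mt-nd6), -0.0223 to 0.0444 (Mt-co1), -0.0725 to 0.0632 (Mt-co2) and -0.0548 to 0.0598 (Mt-co3). The sign also turned for Mt-nd4 when low counts were not filtered (0.0013) or the filter was 1 CPM on average (0.00092), for Mt-co1 with library size only (-0.00019), and for Mt-co2 with library size only (-0.0061) or limma-voom (-0.0019). The median coefficient of variation of complex I members among doxorubicin rats, examined without rat 2 after seeing the data, was 17.3% with and 7.18% without that rat, and that of complex IV members 9.96% and 6.23%. The cause was not tested. The summed shares kept within 1 SD under each alternative. No paired analysis was possible because the groups share no rat number.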

Other observations

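Nuclear genes that maintain and express the mitochondrial genome were examined as well. Of 10 mitochondrial transcription genes, 21 RNA processing and stability genes, 16 DNA replication and topology genes and 10 regulators of mitochondrial biogenesis tested, 0 passed edgeR and 0 passed DESeq2. At an unadjusted p below 0.05 there were 0, 0, 1 (lower) and 2 (1 higher and 1 lower), beside 6.76% of all genes. The DNA replication and topology list had 13 of 16 log2 fold changes below 0 (median -0.05), beside 52.2% below 0 and a median of -0.0047 over all genes. Its summed abundance was 871.4 to 881.6 CPM in controls and 815.1 to 859.6 CPM in treated rats, lowest in rat 2. In this list 2 of 16 genes, Dna2 among them, had groups without overlap, both lower after doxorubicin, beside 4.72% of all genes. Dna2, a nuclease and helicase that also acts in the nucleus, had a mean of 94.4 ± 2.58 CPM over control rats and 85.3 ± 4.36 CPM over treated rats (SD, n = 4 each), without overlap, a log2 fold change of -0.15 ± 0.04 that did not pass (edgeR adjusted p = 0.349). Top1mt, the mitochondrial topoisomerase I, had one of -0.13 ± 0.08 (edgeR adjusted p = 0.835).

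Esrra, which encodes the estrogen-related receptor alpha, a regulator of respiratory chain genes, averaged 2.49 ± 0.15 CPM over control rats and 3.41 ± 0.72 CPM over treated rats, with no overlap (log2 fold change 0.46 ± 0.15, edgeR adjusted p = 0.451). Pprc1, a coactivator of the same program, had a log2 fold change of -0.07 ± 0.03 with no overlap (edgeR adjusted p = 0.736). Mterf3, a mitochondrial transcription and ribosome factor, had one of 0.11 ± 0.05 with no overlap (edgeR adjusted p = 0.75), and Mrpl12, a mitochondrial ribosomal protein, had -0.07 ± 0.04 (edgeR adjusted p = 0.834). Among all genes tested 4.72% had no overlap. In the RNA processing list Hsd17b10, a component of mitochondrial RNase P, and Mtpap, the mitochondrial poly(A) polymerase, had values of -0.13 ± 0.07 and -0.06 ± 0.05 on the log2 scale (edgeR adjusted p = 0.797 and 0.919).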
